A study of Danio rerio with 23 samples.

Results

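The insulin receptor is a receptor tyrosine kinase that binds insulin at the cell surface, phosphorylates itself and then phosphorylates docking proteins, chiefly the insulin receptor substrates IRS1 and IRS2, which recruit phosphoinositide 3-kinase. The closely related IGF1 receptor uses the same substrates in response to insulin-like growth factors and is known for its part in growth. The adaptor SHC1 links both receptors to the Ras and MAP kinase cascade, and the adaptor GRB10 binds the activated receptors and, in mouse and human cells, dampens their signal. Many of these genes have more than 1 copy in zebrafish because the genome of the teleost ancestor was duplicated.

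The genes described here are the insulin receptor copies ENSDARG00000011948 and ENSDARG00000071524, both called INSR in the name table, and every gene whose symbol was irs1, irs2, igf1r, grb10 or shc1, with or without the letter a or b. The rule found 10 gene IDs, of which 9 were among the 22856 genes counted: the 2 insr copies, igf1r (ENSDARG00000027423), irs1 (ENSDARG00000054087), the irs2 copies ENSDARG00000037099 and ENSDARG00000075282, shc1 (ENSDARG00000075437) and the grb10 copies ENSDARG00000002013 and ENSDARG00000035308. The other igf1r ID, ENSDARG00000034434, was not analysed here. The name table did not say which copy is a and which is b, so copies are named by their IDs.

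RNA was sequenced from whole, untreated zebrafish larvae at 96 hpf (hours post fertilization) in 4 genotypes: wildtype (WT, 6 libraries), AKR1A1AKO, without the aldo-keto reductase gene akr1a1a (5 libraries), GLO1KO, without the glyoxalase gene glo1 (6 libraries), and the double knockout of both genes, DKO (6 libraries). All larvae carried the Tg(fli1:EGFP) transgene, which marks endothelial cells with a green fluorescent protein. The knockouts were made with CRISPR/Cas9, and the DKO and WT lines came from an intercross of double heterozygotes, so a difference between lines and the effect of the genotype cannot be told apart. Each library came from pooled larvae, with clutches as replicates by the study's legends, and p-values measure the spread between such libraries. Levels are given as CPM (counts scaled to a common library total) scaled by TMM, a method that sets the library scale from genes that differ little between libraries. CPM is not corrected for gene length, so levels are compared between genotypes and not between genes. A gene was called changed where edgeR's quasi-likelihood test gave a Benjamini-Hochberg adjusted p below 0.05 over all genes tested. A stricter call also asked for a fold change above 1.5. Shares of all genes called count both directions together, and shares of all genes called higher or lower alone are not given.

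Totals per library lay between 34316527 and 36804437 counts. The level of glo1 was 81.9 ± 5.78 CPM in WT and 81.3 ± 4.59 CPM in AKR1A1AKO larvae, against 3.26 ± 0.219 CPM in GLO1KO and 3.55 ± 0.576 CPM in DKO larvae (mean ± SD, n = 6, 5, 6 and 6). All 9 genes passed the filter on low counts in every comparison, and none had 0 counts in any library.

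Between DKO and WT larvae, 1 insr copy rose, while the other insr copy, the igf1r gene and both grb10 copies fell. The adaptor shc1 was slightly higher, and irs1 and both irs2 copies did not pass the test. The calls of the insr copy that rose and of shc1 were relative to the TMM scaling and were lost with library size only. In all, 6 of the 9 genes were called, 2 higher and 4 lower, where 61.0% of all genes tested were called. With the fold threshold, 4 of the 9 were called, all lower, against 25.3% of all genes. The CPM ranges of DKO and WT did not overlap for 5 of the 9, against 37.9% of all genes. The median log2 fold change of the 9 was 0.19 and that of all genes was -0.0057. The first share lay near that of all genes, and the account below rests on single genes.

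**Figure D1:**
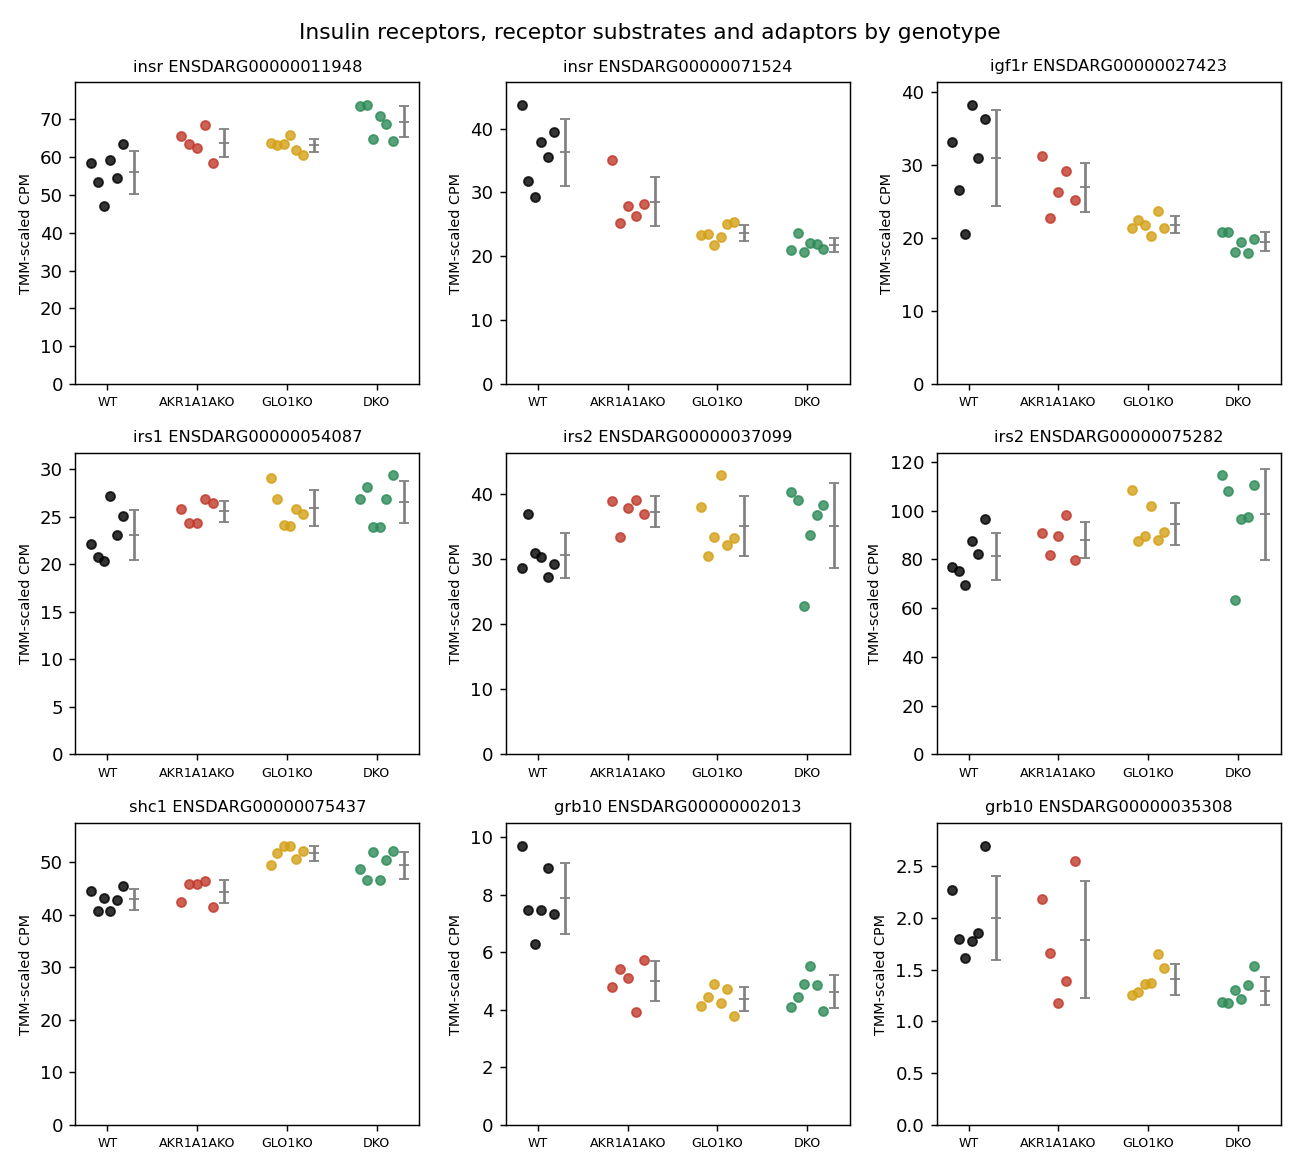
TMM-scaled CPM (y axis, from 0) of the 9 genes in each library of the 4 genotypes (x axis); points are libraries, and the grey mark with its bar is the mean ± SD (n = 6, 5, 6 and 6). The insr copy ENSDARG00000071524 lies at 29.3 to 43.8 CPM in WT and at 20.7 to 23.7 CPM in DKO larvae, whereas the other insr copy is higher in DKO, and the latter difference shrinks to a log2 value of 0.12 when only library size is used for scaling.

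The 2 insulin receptor copies moved in opposite directions. The copy ENSDARG00000011948 lay at 47.1, 56.6 and 63.4 CPM (lowest, median and highest) in WT libraries and at 64.3, 69.8 and 73.9 CPM in DKO libraries. GLO1KO libraries lay at 60.6, 63.4 and 65.8 CPM, and the AKR1A1AKO libraries had 58.4, 62.3, 63.5, 65.6 and 68.4 CPM. DKO libraries were all above the WT libraries, while the ranges of the other 2 genotypes overlapped that of WT. Its log2 fold change was 0.30 in DKO against WT (95% confidence interval 0.15 to 0.44, edgeR adjusted p = 0.00151) and 0.17 in GLO1KO against WT (0.043 to 0.30, adjusted p = 0.0225). In AKR1A1AKO against WT it was 0.19 (0.035 to 0.34, adjusted p = 0.0523). It passed the test there with limma (adjusted p = 0.0481), with all libraries in 1 fit (0.0156) and with the replicate number as a block (0.00947). It also passed without WT replicate 6 (0.0234) or AKR1A1AKO replicate 5 (0.0426). With library size only it did not pass there (0.13, edgeR adjusted p = 0.208). The calls in DKO and GLO1KO depended on the scaling. With library size only, the median over all genes of the log2 fold change shifted to -0.18 in DKO and -0.13 in GLO1KO against WT, and the copy's own values became 0.12 (adjusted p = 0.138) and 0.046 (adjusted p = 0.539).

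In the order of its levels, ENSDARG00000011948 was lowest in WT and highest in DKO, with GLO1KO and AKR1A1AKO between them at means of 63.1 ± 1.75 CPM (n = 6) and 63.7 ± 3.73 CPM (n = 5). These middle genotypes did not differ beyond their spread (log2 fold change -0.012, 95% confidence interval -0.11 to 0.084). DKO was 0.13 higher on the log2 scale than GLO1KO (interval 0.036 to 0.22, edgeR adjusted p = 0.0534) and 0.12 higher than AKR1A1AKO (0.0020 to 0.23, adjusted p = 0.0959), and the latter value turned to -0.0058 with library size only. The value against GLO1KO passed the test with DESeq2 (adjusted p = 0.0386) and without GLO1KO replicate 4 (0.0483) or DKO replicate 3 (0.0284) or 6 (0.0284). With library size only it fell to 0.073 (edgeR adjusted p = 0.229).

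The copy ENSDARG00000071524 followed the opposite order. WT libraries lay at 29.3, 36.7 and 43.8 CPM (lowest, median and highest), and the AKR1A1AKO libraries had 25.3, 26.3, 27.9, 28.3 and 35.0 CPM. GLO1KO libraries lay at 21.8, 23.4 and 25.3 CPM and DKO libraries at 20.7, 21.5 and 23.7 CPM. All GLO1KO and DKO libraries were therefore below the lowest WT library, while 1 AKR1A1AKO library, at 35.0 CPM, lay within the WT range. The gene fell by 0.75 on the log2 scale in DKO against WT (standard error 0.0853, edgeR adjusted p = 3.14e-06), a level 1.68 times lower. It fell by 0.62 in GLO1KO against WT (standard error 0.0845, adjusted p = 2.06e-05) and by 0.34 in AKR1A1AKO against WT (standard error 0.106, adjusted p = 0.0227). The last call was lost without AKR1A1AKO replicate 2 (log2 fold change -0.30, adjusted p = 0.0637) or replicate 4 (-0.32, adjusted p = 0.0592), whereas the calls in GLO1KO and DKO against WT kept their side of the threshold under all alternatives tried.

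Between neighbours in this order, AKR1A1AKO was below WT as given above. GLO1KO was below AKR1A1AKO by a log2 fold change of -0.27 (edgeR adjusted p = 0.0110). DKO against GLO1KO, at -0.13 (95% confidence interval -0.24 to -0.025, adjusted p = 0.0865), did not pass the test, but passed it with library size only (adjusted p = 0.0268) and without DKO replicate 2 (0.0461). Against AKR1A1AKO, DKO was lower by 0.40 on the log2 scale (log2 fold change -0.40, adjusted p = 0.000681), and no library of one genotype reached those of the other.

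Dividing the counts of the copies within a library gives a value that does not depend on how the libraries were scaled. The ratio of ENSDARG00000011948 to ENSDARG00000071524 was 1.55 in WT libraries (geometric mean, range 1.34 to 1.67), 2.24 in AKR1A1AKO libraries (1.87 to 2.60), 2.67 in GLO1KO (2.40 to 2.92) and 3.19 in DKO larvae (3.05 to 3.52). Among the 5 comparisons tested, no library of one genotype had a ratio within the range of the other. How often ratios of other gene pairs separate like this was not examined, apart from the irs2 and grb10 copies. Of single genes, CPM ranges did not overlap for 37.9% in DKO, 39.6% in GLO1KO and 18.8% in AKR1A1AKO against WT. The shares were 7.16% in DKO against GLO1KO and 24.0% in DKO against AKR1A1AKO. On the log2 scale the ratio changed by 1.04 in DKO, 0.78 in GLO1KO and 0.53 in AKR1A1AKO against WT. DKO was higher than GLO1KO by 0.26 and higher than AKR1A1AKO by 0.51. Each of these 5 changes had p = 0.00216 in an exact two-sided permutation test, the smallest p these group sizes allow, and 0.00541 after adjustment over the 15 ratio tests made. Neither copy alone was called between DKO and GLO1KO after adjustment over all genes tested, while their ratio passed after adjustment over 15 tests. Because these adjustments differ, the outcomes cannot be set against each other directly.

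**Figure D2:**
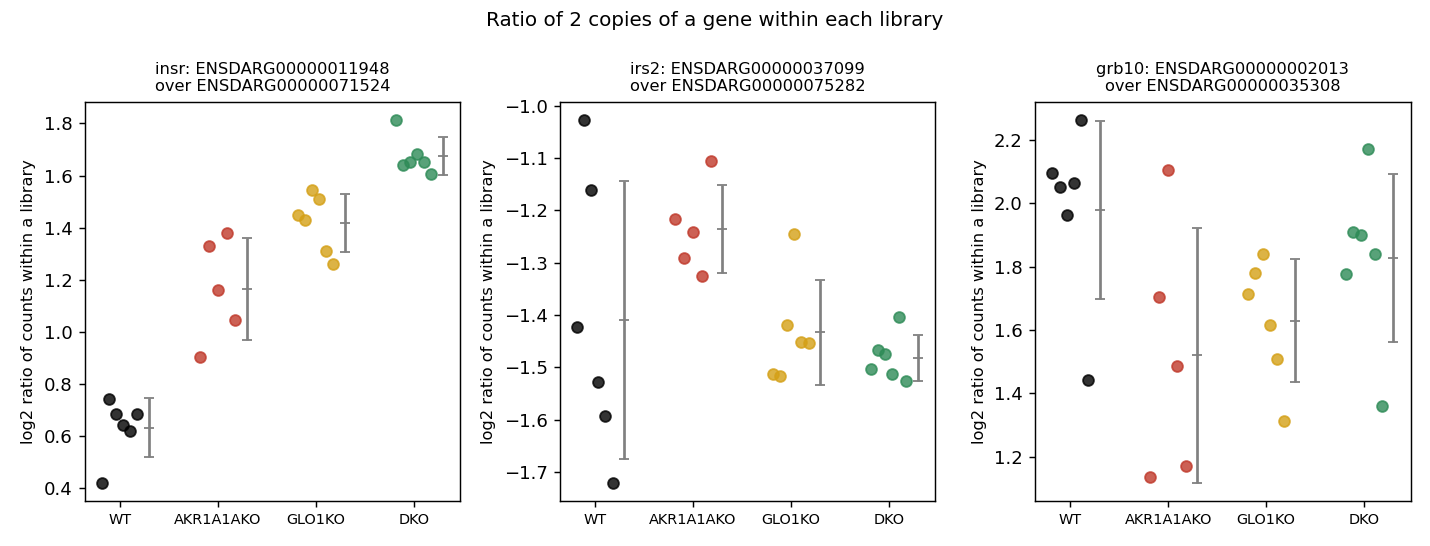
log2 ratio of the counts of 2 copies of a gene (y axis) in each library of the 4 genotypes (x axis), for insr, irs2 and grb10; points are libraries, and grey marks with bars are means ± SD (n = 6, 5, 6 and 6). For insr the log2 ratio has a mean of 0.63 in WT, then 1.16 in AKR1A1AKO, then 1.42 in GLO1KO and finally 1.67 in DKO larvae, and the y axes differ between the panels and do not start at 0.

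With the TMM scaling, the genotype means of both copies together lay closer to each other than those of either copy. Summed CPM was 92.3 ± 10.5 in WT (n = 6), 92.2 ± 5.55 in AKR1A1AKO (n = 5), 86.8 ± 1.24 in GLO1KO larvae (n = 6) and 91.1 ± 4.91 in DKO larvae (n = 6), and all of these ranges overlapped the WT range of 76.4 to 102.9. Within that sum, ENSDARG00000071524 gave 39.2% ± 1.87 of the insr counts in WT, 30.9% ± 2.92 in AKR1A1AKO, 27.3% ± 1.54 in GLO1KO larvae and 23.8% ± 0.894 in DKO larvae. The sum was looked at after the values of the copies were known, carries no test, and weights each copy by its own unknown length. With library size only it was 98.6 ± 11.6 in WT and 85.3 ± 4.16 in DKO larvae, so the closeness of the means depended on the scaling.

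The IGF1 receptor gene igf1r (ENSDARG00000027423) followed the falling insr copy. WT libraries lay at 20.6, 32.0 and 38.3 CPM (lowest, median and highest), and the AKR1A1AKO libraries had 22.8, 25.2, 26.4, 29.1 and 31.3 CPM. GLO1KO libraries lay at 20.2, 21.6 and 23.7 CPM and DKO libraries at 18.0, 19.7 and 20.8 CPM. WT replicate 3, at 20.6 CPM, lay among the GLO1KO and DKO libraries, and the other 5 WT libraries lay above both. The gene fell by 0.68 on the log2 scale in DKO against WT (standard error 0.121, edgeR adjusted p = 0.000210) and by 0.50 in GLO1KO against WT (standard error 0.118, adjusted p = 0.00174). In AKR1A1AKO against WT its log2 fold change was -0.20 (95% confidence interval -0.49 to 0.10, adjusted p = 0.274).

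Among neighbouring genotypes, igf1r was lower in GLO1KO than in AKR1A1AKO (log2 fold change -0.30, edgeR adjusted p = 0.00458). It was also lower in DKO than in GLO1KO (-0.17, standard error 0.0552, adjusted p = 0.0404), a call lost when any of 9 of the 12 libraries was left out and when all 23 libraries were fitted at once (adjusted p = 0.342). Against AKR1A1AKO, DKO was lower by a log2 fold change of -0.48 (adjusted p = 0.000207), with no overlap of the ranges.

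Across the 23 libraries, the log2 CPM of igf1r and of ENSDARG00000071524 had a Pearson correlation of 0.91, which placed igf1r at rank 180 of the 16534 genes compared. When each library was taken as its deviation from its genotype mean, the correlation was 0.74. With the other insr copy, ENSDARG00000011948, igf1r had -0.30 over all libraries and 0.77 within genotypes. These within-genotype values pool the deviations of all 23 libraries and were not split by genotype. Genotypes with a wider spread weigh more in them: the SD of igf1r was 6.56 CPM in WT, 1.16 in GLO1KO and 1.27 in DKO larvae. WT replicate 3 was the lowest WT library for igf1r and for both insr copies, and the values without it were not examined. The same values for the 2 insr copies were -0.52 over all libraries and 0.53 within genotypes. The copies thus differed in direction between genotypes, while their pooled deviations correlated positively. That did not hold in each genotype. In GLO1KO, the libraries lowest for ENSDARG00000011948, replicates 6 and 5 at 60.6 and 62.0 CPM, were the highest for ENSDARG00000071524, at 25.3 and 25.0 CPM. The 5 genes closest to ENSDARG00000071524 were MYO5A, VWA8 and SPTBN1 (each 0.96), STRN and DNMT3A (each 0.95). Those closest to ENSDARG00000011948 were si:dkeyp-72e1.9 (0.87), IP6K2 (0.85), ENSDARG00000111428 (0.85), TIAM2 (0.84) and ENSDARG00000110935 (0.83). These correlations are descriptions over libraries that share 4 genotypes and 1 scaling.

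**Figure D3:**
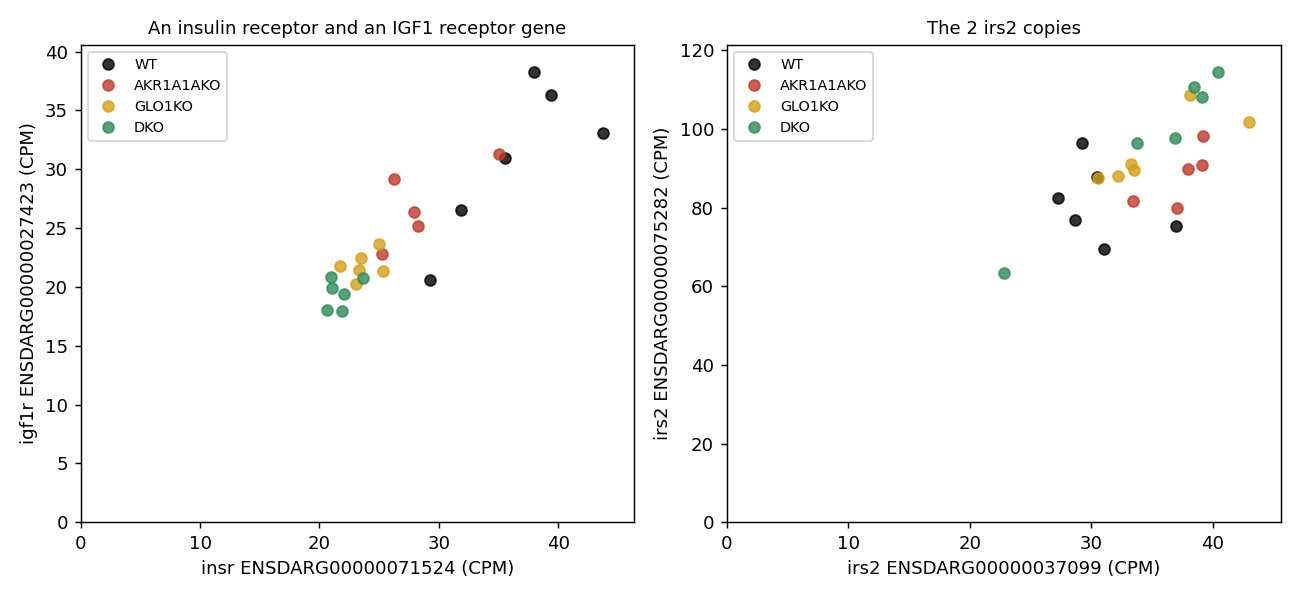
CPM of 2 genes in each of the 23 libraries, coloured by genotype; left, insr ENSDARG00000071524 (x axis) and igf1r (y axis), right, the 2 irs2 copies. The left panel runs from WT libraries at up to 43.8 and 38.3 CPM down to DKO libraries at about the lowest values of both genes, and in the right panel DKO replicate 3 stands apart at 22.8 and 63.4 CPM.

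Of the docking proteins, the gene irs1 had 23.1 ± 2.64 CPM in WT (n = 6), 25.6 ± 1.15 in AKR1A1AKO (n = 5), 25.9 ± 1.90 in GLO1KO (n = 6) and 26.5 ± 2.21 in DKO larvae (n = 6), with ranges that overlapped in every comparison. It was not called in any of them. The log2 fold change was 0.19 in DKO against WT (95% confidence interval 0.017 to 0.36, edgeR adjusted p = 0.0543) and 0.024 in DKO against GLO1KO (-0.11 to 0.15). The value against WT passed the test with all libraries in 1 fit (0.20, adjusted p = 0.0145) and without WT replicate 4 or 6 or DKO replicate 3 or 4 (adjusted p from 0.0139 to 0.0376), and with library size only it was 0.0095. In GLO1KO against WT (0.17, adjusted p = 0.0646) it also passed with all libraries in 1 fit (adjusted p = 0.0401) and without WT replicate 4 (0.0141) or 6 (0.0431). In AKR1A1AKO against WT (0.15, adjusted p = 0.130) it passed without WT replicate 4 (0.0444) and with the replicate number as a block (0.0353). With library size only, irs1 did not pass in either, at 0.039 in GLO1KO and 0.088 in AKR1A1AKO against WT.

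For irs2 ENSDARG00000037099, WT libraries lay at 27.3, 29.9 and 37.0 CPM (lowest, median and highest), and the AKR1A1AKO libraries had 33.4, 37.1, 38.0, 39.1 and 39.2 CPM. GLO1KO libraries lay at 30.6, 33.4 and 43.0 CPM and DKO libraries at 22.8, 37.7 and 40.4 CPM. The AKR1A1AKO libraries overlapped the WT range only through 1 WT library, at 37.0 CPM. The gene was called in AKR1A1AKO against WT alone (log2 fold change 0.29, standard error 0.0771, edgeR adjusted p = 0.0116). In DKO against WT the value was 0.19 (95% confidence interval -0.058 to 0.44, adjusted p = 0.169), and without DKO replicate 3 it was 0.29 (adjusted p = 0.00499). DKO did not pass the test against AKR1A1AKO (-0.092, 95% confidence interval -0.33 to 0.15, adjusted p = 0.540). In GLO1KO against WT the value was 0.20 (adjusted p = 0.0616), and it passed the test without WT replicate 2 (adjusted p = 0.0129) or GLO1KO replicate 2 (0.0348). With library size only, this copy was at 0.013 in DKO and 0.070 in GLO1KO against WT.

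The second irs2 copy, ENSDARG00000075282, lay at 69.4, 79.6 and 96.5 CPM in WT libraries (lowest, median and highest) and at 63.4, 102.9 and 114.6 CPM in DKO libraries. GLO1KO libraries lay at 87.5, 90.4 and 108.7 CPM, and the AKR1A1AKO libraries had 79.8, 81.8, 89.7, 90.8 and 98.2 CPM. Apart from DKO replicate 3, at 63.4 CPM, the DKO libraries lay between 96.4 and 114.6 CPM, and 1 WT library reached that range. The copy was called in GLO1KO against WT (log2 fold change 0.22, standard error 0.0784, edgeR adjusted p = 0.0253). That call was lost with library size only (0.089, adjusted p = 0.327), with all libraries in 1 fit (adjusted p = 0.0720), and without WT replicate 2 or 3 or GLO1KO replicate 1 or 4 (adjusted p = 0.0543, 0.0599, 0.0660 and 0.0563). In DKO against WT it was 0.26 (95% confidence interval 0.0068 to 0.52, adjusted p = 0.0702), and without DKO replicate 3 it was 0.36 (adjusted p = 0.00168). It also passed the test with all libraries in 1 fit (adjusted p = 0.0233), with the replicate number as a block (0.0359) and without WT replicate 6 (0.0326). With library size only it was 0.086 (edgeR adjusted p = 0.552).

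The irs2 copies were low together in DKO replicate 3. Their deviations from the genotype means had a correlation of 0.72 over the 23 libraries and of 0.36 over the 22 libraries without it, an omission chosen after the values were seen. Their ratio differed between genotypes in 1 of the 5 comparisons. The log2 ratio of ENSDARG00000037099 to ENSDARG00000075282 was -1.48 in DKO and -1.24 in AKR1A1AKO larvae, a change of -0.25 with no overlap (exact two-sided permutation test, p = 0.00216, the smallest possible, 0.00541 adjusted over the 15 ratio tests). In DKO against WT the change was -0.073 (exact permutation p = 0.519), where the WT ratios spread from -1.72 to -1.03.

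Among the adaptors, shc1 was higher in larvae without glo1. WT libraries lay at 40.7, 43.0 and 45.6 CPM (lowest, median and highest), and the AKR1A1AKO libraries had 41.5, 42.5, 45.8, 45.9 and 46.4 CPM. GLO1KO libraries lay at 49.4, 52.0 and 53.2 CPM and DKO libraries at 46.6, 49.6 and 52.2 CPM. All GLO1KO and DKO libraries were above all WT and AKR1A1AKO libraries, while the ranges of WT and AKR1A1AKO overlapped. The log2 fold change was 0.27 in GLO1KO (standard error 0.0434, edgeR adjusted p = 8.50e-05) and 0.19 in DKO (standard error 0.0495, adjusted p = 0.00358) against WT. In AKR1A1AKO against WT it was 0.054 (95% confidence interval -0.059 to 0.17), and -0.0093 with library size only. That scaling left a call in GLO1KO (0.14, adjusted p = 0.0133) but not in DKO larvae (0.015, adjusted p = 0.815).

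Against AKR1A1AKO, shc1 was higher in GLO1KO larvae (log2 fold change 0.22, edgeR adjusted p = 0.00148) and in DKO larvae (0.15, adjusted p = 0.0286). The latter call was lost with library size only (0.024, adjusted p = 0.750) and without AKR1A1AKO replicate 1 or 5 or DKO replicate 3, 5 or 6 (adjusted p from 0.0520 to 0.0726). DKO and GLO1KO did not pass the test against each other (-0.075, 95% confidence interval -0.16 to 0.012, adjusted p = 0.229).

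The adaptor grb10 was lower in both copies in GLO1KO and DKO larvae, and in the copy ENSDARG00000002013 alone in AKR1A1AKO larvae. Its copy ENSDARG00000002013 lay at 6.31, 7.48 and 9.71 CPM in WT libraries (lowest, median and highest), at 3.78, 4.34 and 4.91 CPM in GLO1KO libraries and at 3.95, 4.67 and 5.52 CPM in DKO libraries. The AKR1A1AKO libraries had 3.92, 4.80, 5.12, 5.43 and 5.75 CPM. No knockout library reached the lowest WT library, and the 3 knockout genotypes overlapped each other. The copy fell by 0.78 on the log2 scale in DKO (standard error 0.115, edgeR adjusted p = 3.97e-05), by 0.85 in GLO1KO (standard error 0.109, adjusted p = 1.17e-05) and by 0.65 in AKR1A1AKO against WT (standard error 0.127, adjusted p = 0.00293), that is 1.71, 1.80 and 1.57 times lower. These calls held under all alternatives tried.

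The change that went with the loss of akr1a1a depended on the glo1 genotype. From WT to AKR1A1AKO this grb10 copy fell, as given above, and from GLO1KO to DKO its log2 fold change was 0.073 (95% confidence interval -0.15 to 0.29). The test of the difference between these changes gave 0.74 (standard error 0.161, edgeR adjusted p = 0.00140). It was the only one of the 9 genes past that test, where 31.8% of all genes were, and without AKR1A1AKO replicate 1 the insr copy ENSDARG00000071524 passed it too (0.31, adjusted p = 0.0347).

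The other grb10 copy, ENSDARG00000035308, was counted less. Its level was 2.00 ± 0.406 CPM in WT (n = 6), 1.79 ± 0.564 in AKR1A1AKO (n = 5), 1.41 ± 0.152 in GLO1KO (n = 6) and 1.29 ± 0.135 in DKO larvae (n = 6). DKO libraries, at 1.18 to 1.53 CPM, were all below the WT libraries, at 1.61 to 2.70 CPM. It fell by 0.64 on the log2 scale in DKO (standard error 0.154, edgeR adjusted p = 0.00223) and by 0.50 in GLO1KO against WT (standard error 0.149, adjusted p = 0.00838). The AKR1A1AKO libraries spread from 1.18 to 2.54 CPM and overlapped every other genotype, with a log2 fold change of -0.15 against WT (95% confidence interval -0.60 to 0.29). The ratio of the grb10 copies passed its test in none of the 5 comparisons, with changes from -0.46 to 0.31 on the log2 scale and unadjusted exact two-sided permutation p from 0.0368 to 0.355, the lowest in GLO1KO against WT. It passed in 3 of them when 1 library was left out: GLO1KO against WT without WT replicate 6 (-0.46, exact permutation test, adjusted p = 0.0108), AKR1A1AKO against WT without AKR1A1AKO replicate 3 (-0.61, adjusted p = 0.0408) and DKO against GLO1KO without DKO replicate 6 (0.29, adjusted p = 0.0417).

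**Figure D4:**
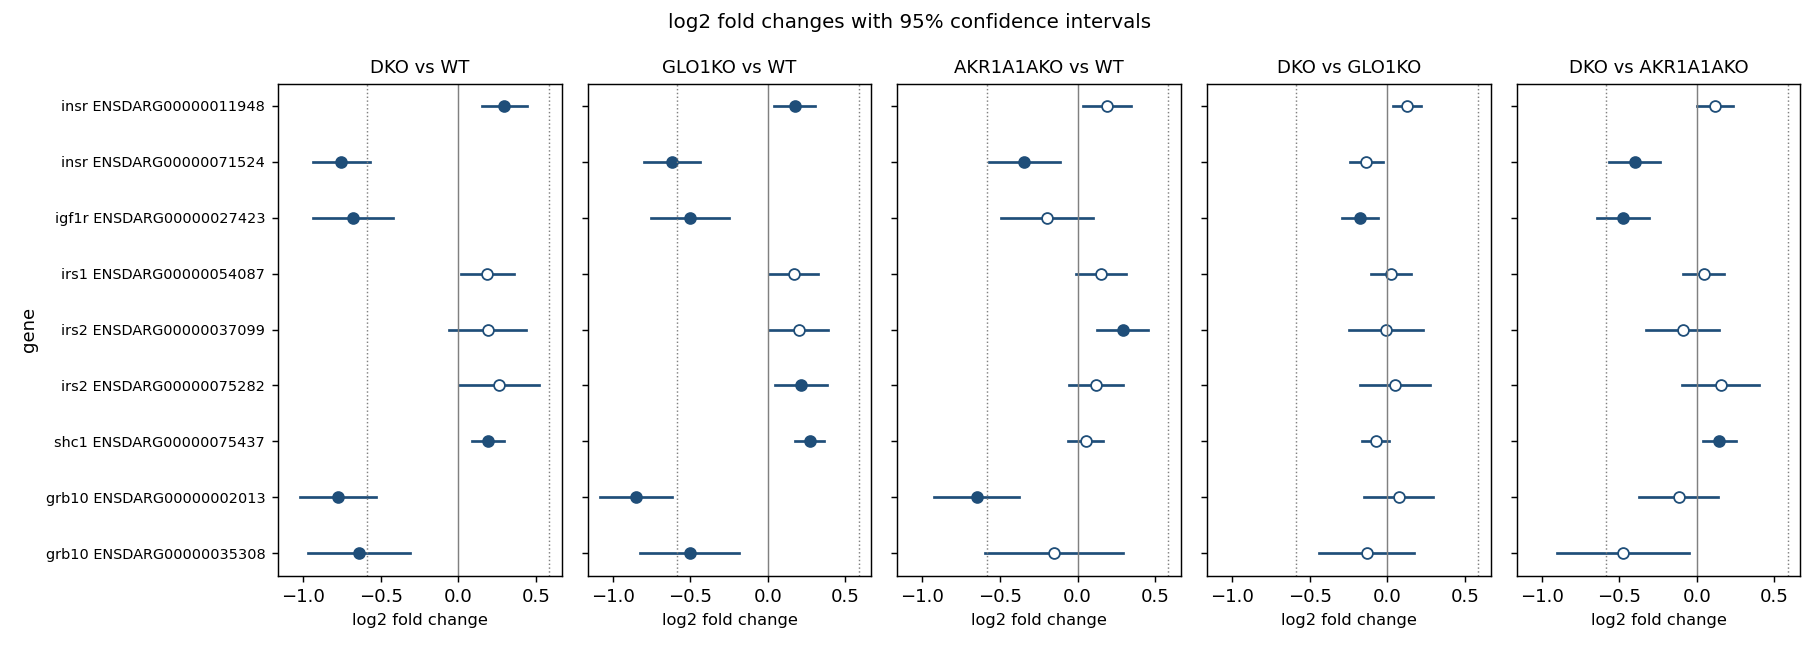
log2 fold changes (x axis) of the 9 genes (y axis) in 5 comparisons, with 95% confidence intervals as lines; filled points passed edgeR's adjusted p of 0.05, and dotted lines mark a fold change of 1.5. One insr copy, igf1r and both grb10 copies lie to the left of 0 in DKO and GLO1KO against WT, and the other genes lie to the right of 0 there, by at most 0.30, and with library size only by 0.0095 to 0.14.

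In GLO1KO against WT, 7 of the 9 genes were called, 3 higher and 4 lower, where 63.1% of all genes were. With the fold threshold 2 were called, the insr copy ENSDARG00000071524 and the grb10 copy ENSDARG00000002013, against 24.5% of all genes, and the ranges of 3 did not overlap, against 39.6%. In AKR1A1AKO against WT, 3 of the 9 were called, where 37.6% of all genes were, 1 of them, grb10 ENSDARG00000002013, with the fold threshold (11.5% of all genes) and with ranges that did not overlap (18.8%). These comparisons and that of DKO with WT share the WT libraries.

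Between DKO and GLO1KO, igf1r was the 1 gene called, where 16.6% of all genes were. None passed the fold threshold (4.24% of all genes), and every range overlapped, where 7.16% of all genes had ranges that did not. By edgeR, both insr copies also had an unadjusted p below 0.05 (0.00921 and 0.0189). Between DKO and AKR1A1AKO, 3 of the 9 were called (41.1% of all genes), none with the fold threshold (11.9%), and the ranges of 3 did not overlap (24.0%). Between GLO1KO and AKR1A1AKO, compared only to order the levels, the calls were ENSDARG00000071524, igf1r and shc1, where 36.6% of all genes were called.

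The genes around the receptors were taken from 6 lists: ligands, IGF binding proteins, the related receptor igf2r, other adaptors, subunits of phosphoinositide 3-kinase, and negative regulators. Of 53 genes tested, 9 were higher and 27 lower in DKO than in WT, 36 in all, where 61.0% of all genes were called. With the fold threshold, 1 was higher and 12 lower, where 25.3% of all genes were called, and the median log2 fold change of the 53 was -0.18. In GLO1KO against WT 12 were higher and 24 lower, 36 in all, where 63.1% of all genes were called. In AKR1A1AKO against WT 5 were higher and 15 lower, 20 in all, where 37.6% of all genes were called. These shares lay near those of all genes.

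Among the ligands, IGF1, the main growth-promoting ligand of the IGF1 receptor, rose from 2.27 ± 0.327 CPM in WT to 3.74 ± 0.691 CPM in DKO larvae (log2 fold change 0.71, edgeR adjusted p = 0.000514), with WT libraries at 1.81 to 2.78 CPM and DKO libraries at 2.98 to 4.66 CPM. The second ligand tested, igf2a, fell by 0.30 on the log2 scale (adjusted p = 0.00644). The ligand list held 6 symbols, of which 3 were found among the genes counted. Insulin was not one of those found, so its level is not given here. IGF2R, which in mammals clears IGF2 from the cell surface, fell by 0.58 (adjusted p = 0.00141). The IGF binding proteins carry the ligands and limit their access to the receptor. Among all genes, 61.0% were called in DKO against WT and 25.3% passed the fold threshold, in either direction. Of the 8 binding proteins tested, 6 were called lower, 4 of them past the fold threshold, and none was called higher. IGFBP2 fell from 4.08 ± 1.83 to 1.13 ± 0.265 CPM (log2 fold change -1.86, adjusted p = 2.71e-05), and its WT libraries spread from 2.33 to 7.37 CPM. The other 3 were igfbp6b (-0.89), IGFBP5 ENSDARG00000039264 (-0.99) and igfbp1b (-0.59). The genes named here were called in the same direction in GLO1KO against WT. There the log2 fold changes were 0.52 for IGF1, -2.07 for IGFBP2 and -1.15 for igfbp1b. Of the 8 binding proteins, 6 were lower there, 5 past the fold threshold, where 63.1% and 24.5% of all genes were called. In AKR1A1AKO against WT, 4 were lower, 1 past the fold threshold (37.6% and 11.5% of all genes).

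The counts that follow are of called genes in DKO against WT. Of all genes, 61.0% were called there and 25.3% passed the fold threshold, in either direction. Of 19 other adaptors, 4 were higher and 10 lower in DKO than in WT. Past the fold threshold, all 5 were lower, among them GAB2, a docking protein (log2 fold change -1.10, edgeR adjusted p = 8.53e-06), sh2b3 (-1.77), SH2B2 (-0.64) and the SHC1 relative shc2 (-1.07, adjusted p = 0.000131). The gene sh2b3 was counted little, at 1.43 ± 0.559 CPM in WT and 0.423 ± 0.0739 CPM in DKO larvae. Of the 6 kinase subunits, 2 were higher and 2 lower. PIK3CA, a catalytic subunit, fell from 22.7 ± 1.37 to 12.5 ± 0.728 CPM (log2 fold change -0.87, adjusted p = 3.10e-08), with libraries at 20.5 to 24.4 CPM in WT and 11.7 to 13.5 CPM in DKO larvae. Of 17 negative regulators, 2 were higher and 7 lower, and those past the fold threshold were CBL, a ubiquitin ligase (-0.87, adjusted p = 7.50e-08), and PTPRA, a receptor phosphatase (-0.72, adjusted p = 1.44e-06). The adaptors, kinase subunit and regulators named here were called lower in GLO1KO against WT too. There the log2 fold changes were -0.76 for GAB2, -0.70 for PIK3CA, -0.68 for CBL and -0.57 for PTPRA.

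Markers of several tissues differed between the genotypes too, and in whole larvae fewer cells of a type and less RNA per cell cannot be told apart. Higher and lower mean here that a marker was called. Of all genes, 61.0% were called in DKO, 63.1% in GLO1KO and 37.6% in AKR1A1AKO against WT, in either direction. All 8 liver markers were lower in GLO1KO and in AKR1A1AKO than in WT, and 6 of 8 in DKO. In DKO, fabp10a (log2 fold change -0.093) and fga (-0.29) did not pass the test. The summed level of the liver markers was 1823 to 5031 CPM in WT, 748.9 to 1602 in AKR1A1AKO, 482.9 to 944.1 in GLO1KO larvae and 1111 to 1958 in DKO larvae. All 7 photoreceptor markers were higher in each knockout than in WT, with sums of 4657 to 6607 CPM in WT and 7212 to 8902 CPM in the 3 knockouts. Of 11 neuronal markers, 6 were higher and 2 lower in DKO than in WT, and their sum was 2838 to 4017 CPM in WT and 4256 to 4384 CPM in DKO larvae. Of 9 skeletal muscle markers, 3 were higher and 4 lower in DKO than in WT. Their sum was 36710 to 41920 CPM in WT and 40660 to 48720 CPM in DKO larvae. Of 4 erythrocyte markers, 1 was higher and 3 lower in DKO than in WT, with sums of 311.7 to 378.2 CPM in WT and 181.2 to 249.9 CPM in DKO larvae. Of 4 exocrine pancreas markers, all 4 were called lower in GLO1KO and in AKR1A1AKO than in WT, and 1, amy2a, in DKO. In DKO the log2 fold changes of prss59.1 (-0.52), ela3l (-0.32) and prss1 (-0.25) were negative too but did not pass the test. The sum of the 4 was 190.5 to 740.9 CPM in WT, 76.5 to 212.4 CPM in AKR1A1AKO, 43.2 to 186.4 CPM in GLO1KO larvae and 185 to 362.5 CPM in DKO larvae. No marker was at 0 in every library. The part of these tissues in the levels of the 9 genes was not tested.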

How the data were processed

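Whole zebrafish larvae were sequenced on the DNBSEQ platform from strand-specific mRNA libraries. Per the labels and the study's methods, the authors used SOAPnuke for filtering, HISAT2 for alignment (GRCz11) and featureCounts 2.0.3 for counting by gene, and the deposited values are expected counts without normalization. How reads shared by paralogs were counted is not given in the sources used here, so a split between copies carries that uncertainty. Values of 94 genes (0.411%) that were not whole were rounded here, none of them among the 9 genes described. Genotypes came from the labels. Pairs of genotypes were compared with edgeR 4.0.16 (TMM, filter on low counts, quasi-likelihood test, Benjamini-Hochberg over all genes), where the study used limma. Each confidence interval is 95% and assumes the fitted spread. Copy ratios used counts plus 0.5 and exact permutation tests; igf1r had 1 copy analysed, so 3 of 4 planned pairs gave 15 tests. Likeness used genes with a mean log2 CPM above 1. Named genes were all 9 genes, the 5 closest to each insr copy, and at most 4 per list past both thresholds. Symbols were found for 88.2% of genes. The genes and lists were chosen with earlier results of these data known. Scripts were tested on simulated data. Alternatives were DESeq2 1.42.0, limma 3.58.1, other scalings, no filter, all libraries in 1 fit, a replicate block and each library left out. They were examined for the 9 genes, the copy ratios and all genes together. The genes of the lists and the tissue markers were not examined under them.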

Additional observations from a re-analysis of the deposited data

Results flagged for a closer look

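Among 48 groups of 5 or 6 libraries looked at (9 genes and 3 copy ratios in 4 genotypes), 4 had 1 library well apart from the rest, where chance gives about 1 in 20, or 2.4. DKO replicate 3 was lowest for irs2 ENSDARG00000075282, at 63.4 CPM, where the other DKO libraries lay at 96.4 CPM and above. DKO replicate 1 had the highest log2 ratio of the insr copies, at 1.81. GLO1KO replicate 4 had the highest log2 ratio of the irs2 copies among GLO1KO libraries, at -1.24, and WT replicate 6 the lowest log2 ratio of the grb10 copies among WT libraries, at 1.44. The change of grb10 ENSDARG00000002013 with the loss of akr1a1a differed by glo1 genotype in edgeR's test of the difference itself, by 0.74 on the log2 scale.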

How the results depend on the processing

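Of the alternatives tried, 263 of the values that answer a comparison kept their result, and 20 counts of called genes moved by over 1.5 times. The other 5 values no longer passed, all of them insr ratios paired by number, in a test that could not pass. A count within 1.5 times of its main value was taken as kept, so such counts could still change. In DKO against WT, the 6 calls became 4 with library size only and 6 to 9 with each library left out. Past both thresholds the count there was 3 to 4 with each library left out. In GLO1KO against WT, the 7 calls became 5 with library size only and 6 to 8 with each library left out. Among values of single genes and the other ratios, 1151 kept direction and call, 38 came to pass the threshold, 30 lost it and 25 changed sign, none of the latter a called value. The count past both thresholds in GLO1KO against WT was 4 with library size only and 1 to 3 with each library left out, the lowest without WT replicate 1. In AKR1A1AKO against WT it was 0 to 1, the lowest without AKR1A1AKO replicate 4, and in DKO against AKR1A1AKO it was 2 with library size only and 0 to 1 with each library left out. The calls between DKO and GLO1KO numbered 2 with library size only, 2 with DESeq2, 0 with all libraries in 1 fit and 0 to 2 with each library left out, and those of the difference test 1 to 2.

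Same-numbered libraries had correlations of their deviations from -0.25 to 0.35 in 33 pairs, of which 9 exceeded 0.1. Libraries with different numbers were not compared, so these values cannot decide whether the numbers mark pairs. With the replicate block, 6 genes were called in AKR1A1AKO against WT and 0 in DKO against GLO1KO, and the call of shc1 in DKO against AKR1A1AKO was lost (0.13, adjusted p = 0.118). Paired by number, the insr ratio changed by 1.04 in DKO and 0.78 in GLO1KO against WT. It changed by 0.26 in DKO against GLO1KO (exact sign-flip test, adjusted p = 0.0938 for each of these). The change was 0.54 in AKR1A1AKO against WT and 0.52 in DKO against AKR1A1AKO (same test, adjusted p = 0.117 each). Over 5 or 6 pairs few sign changes exist, and no values could give an adjusted p below 0.05. The paired test therefore cannot decide whether the ratio changes hold. The block turned the difference test of grb10 ENSDARG00000035308 to -0.0063.

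With library size only, values turned to -0.0093 for shc1 (AKR1A1AKO against WT), to -0.0299 for irs1 and -0.0032 for irs2 ENSDARG00000075282 (DKO against GLO1KO), and to -0.0058 for insr ENSDARG00000011948 and -0.0787 for irs1 (DKO against AKR1A1AKO). With all libraries in 1 fit irs2 ENSDARG00000037099 turned to 0.0054 in DKO against GLO1KO. With each library left out, ranges that crossed 0 were -0.0065 to 0.0591 for irs1 and -0.0477 to 0.0932 for irs2 ENSDARG00000037099 (DKO against GLO1KO), -0.136 to 0.0059 for the latter (DKO against AKR1A1AKO), and, in the difference test, -0.0331 to 0.131 for igf1r, -0.109 to 0.0454 for irs2 ENSDARG00000075282 and -0.0813 to 0.196 for grb10 ENSDARG00000035308. The change of the irs2 ratio against WT spanned -0.135 to 0.0034 in DKO and -0.0868 to 0.052 in GLO1KO. The cause was not tested. The copy ENSDARG00000035308, at 1 to 3 CPM, had the fewest counts, which limits its precision.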
